A study of Mus musculus with 8 samples.

Results

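The IL-1 and IL-18 family genes described here are Il1a, Il1b, Il18, Il1rn, Il18bp, Il1rap, Il18rap, Nlrp3 and Casp1, which are 9 of the 18193 mouse genes that the arrays could measure. They were chosen by name and by no cutoff on a measured value, though earlier results of these data were known at the time. All 16 probe sets that carry only the symbol of 1 of these genes were taken, and the one with the highest average signal stands for its gene below. The study asked whether menthol changes the response of macrophages to bacterial lipopolysaccharide (LPS), and its cells were RAW 264.7, an established mouse macrophage line. Of 4 groups with 2 arrays each, LPS+M cells received menthol for 1 h and then LPS at 100 ng/ml for 6 h, LPS cells received the control treatment and then the same LPS, M cells received menthol and control cells received the control treatment. The labels give no dose of menthol, though the study's text does, and no harvest time for the M and control groups, so the comparisons of cells with and without LPS may include a difference in time. All 4 groups are of 1 transformed line. The 2 arrays of a group are labelled as biological replicates with no word on separate cultures, so the p-values below reflect only how far these arrays scatter, and that scatter may be technical.

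IL-1 alpha and IL-1 beta are cytokines of inflammation that act on the same receptor, made of the binding chain IL-1R1 and the accessory chain encoded by Il1rap. IL-1 beta and IL-18 are made as inactive precursors that caspase-1 cleaves once an inflammasome, such as the one built by NLRP3, has activated it. The family is restrained outside the cell by the IL-1 receptor antagonist, encoded by Il1rn, which occupies the IL-1 receptor without signaling, and by the IL-18 binding protein, which captures IL-18. In macrophages, LPS is the classical first signal of this system, since it raises the RNA of the precursor of IL-1 beta, whereas release of the mature cytokine needs the inflammasome. The arrays measured RNA, not precursor, cleavage or release.

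Values are log2 GC-RMA signals, a scale on which 1 unit is a doubling. A group was described as near background when both of its arrays lay under 4.84, the average of all probe sets, and as at the floor when both lay under 3.01, the median of all probe sets. The medians of the 8 arrays were 2.99 to 3.04, and the 2 arrays of a group correlated at 0.9988 to 0.9994 over all probe sets (points that are not replicates). All 9 macrophage markers measured (among them Adgre1, Cd68, Csf1r and Lyz2) lay above the average, with means of 10.0 to 15.5. All 16 measured markers of lymphocytes, fibroblasts, epithelium, endothelium and other cells stayed under the average on every array, with means of 1.69 to 3.83. Changes were tested with limma over the 8908 genes with a mean above the average, and a change of at least 1.5-fold with a Benjamini-Hochberg adjusted p under 0.05 is termed a call. Of the 9 genes, 6 were tested in this way, and Il1a, Il1b and Il18bp, whose means lay under the average, were taken from the same fit over all 18193 genes. The figure after ± is the SE of a log2 fold change, and a gene past the adjusted p but under 1.5-fold is given as not called.

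The 200 bases before the transcription start of Il1b and of Il1rn are shown because these genes encode the agonist and the antagonist of 1 receptor and were both higher in LPS than in control cells. They come from RefSeq (GRCm38.p6), read 5′ to 3′ on the strand of the gene, at chr2:129371140-129371339 (minus strand) for Il1b and chr2:24336660-24336859 (plus strand) for the first listed start of Il1rn. Capitals mark matches on either strand, which did not overlap, to any of 4 motifs. The NF-kB motif searched was GGGA followed by CC after any 4 bases. The ISRE motif was GAAA repeated after any 2 bases, the AP-1 motif was written as TGANTCA, and the last motif, that of the box near many starts, as TATAAA.
Il1b: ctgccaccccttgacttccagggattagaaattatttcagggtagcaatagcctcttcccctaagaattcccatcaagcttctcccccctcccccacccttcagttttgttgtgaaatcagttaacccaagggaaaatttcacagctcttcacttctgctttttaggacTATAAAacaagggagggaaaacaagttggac
Il1rn: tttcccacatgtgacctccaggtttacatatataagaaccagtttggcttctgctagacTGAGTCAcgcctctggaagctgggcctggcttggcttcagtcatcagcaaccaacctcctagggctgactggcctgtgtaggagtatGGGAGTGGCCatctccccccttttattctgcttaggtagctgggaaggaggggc

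The stretch of Il1b held TATAAA 31 bases before the start and none of the other letters. In the stretch of Il1rn, the AP-1 letters lay 141 bases and the NF-kB letters 54 bases before the start. Il1rn had 3 listed starts, and these letters were found only at the first. Promoter windows of 300 bases (250 before and 50 after a start) were found for 9 of 9 genes, 12 windows in all. The NF-kB letters occurred in 3 of them, those of Il1rn, Il1rap and Nlrp3, and in 20.7% of all 32851 mouse windows. AP-1 letters occurred in 2 windows (Il1a and Il1rn) and in 7.81% of all windows, the ISRE letters in 1 window (Il1rap) and in 3.44%, and TATAAA in 4 windows (Il1a, Il1b, Il1rn and Il18) and in 13.6%. The matches describe the letters in these windows only.

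Among the cytokines that activate the receptors, only Il1b was called higher in LPS than in control cells. Il1b had 3.14 and 3.22 in LPS+M cells, 5.90 and 5.41 in LPS cells, 3.09 and 3.08 in M cells, and 3.10 and 3.08 in control cells. Both LPS arrays passed the average and lay above every other array, while the other 3 groups were near background and close together. The level in LPS cells was 2.56 ± 0.15 higher than in control cells, or 5.91-fold (limma over all genes, adjusted p = 0.000798). In LPS+M cells Il1b was 2.47 ± 0.15 lower than in LPS cells on the log2 scale, or 5.56-fold lower (limma over all genes, adjusted p = 0.00102). Since the control and LPS+M levels were both near background, these folds hold for the deposited scale only. Both SEs come from a spread pooled over all 4 groups, which were not alike. The SD between arrays was 0.35 in LPS cells, 0.05 in LPS+M cells, 0.002 in M cells and 0.01 in control cells. The SEs and adjusted p-values may therefore overstate how precisely the LPS level was measured. The arrays hold RNA of whole cultures, so a transcript carried by fewer cells and a transcript present at less RNA per cell cannot be told apart.

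LPS+M cells differed from M cells in Il1b by 0.10 ± 0.15 (limma over all genes, adjusted p = 0.881) and from control cells by 0.09 ± 0.15 (adjusted p = 0.993), neither called. The comparisons of LPS with control and of LPS+M with LPS share the 2 LPS arrays. The test of whether the LPS response itself differed with menthol gave -2.47 ± 0.21 for Il1b and was not called (limma over all genes, adjusted p = 0.0672). It was called when LPS replicate 1 was left out (-2.22, adjusted p = 0.0041) or LPS replicate 2 (-2.72, adjusted p = 0.0015). Either fit leaves LPS, the group with the widest scatter of Il1b, with 1 array, which is then assumed to vary like the other groups, so these 2 calls say nothing about stability. Both LPS arrays lay above every other array, so leaving out any 1 of the 8 arrays could not reverse either pairwise difference. With 1 array left out, these differences were 2.32 to 2.81 for LPS against control and -2.72 to -2.23 for LPS+M against LPS. The ends of both ranges came from the fits with 1 LPS array, so they show the size and not the stability of a call. The unadjusted methods' t-test, which uses only the 4 arrays compared, missed the threshold for Il1b in both comparisons.

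Il1a, the other agonist of the IL-1 receptor, had 2.14 and 2.19 in LPS+M cells, 2.16 and 2.17 in LPS cells, 2.16 and 2.15 in M cells, and 2.17 and 2.15 in control cells. All 8 arrays were at the floor, and no difference between groups was detectable at this signal.

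Il18, measured well above background everywhere, had 8.37 and 8.35 in LPS+M cells, 7.95 and 8.20 in LPS cells, 8.88 and 9.05 in M cells, and 8.37 and 8.44 in control cells. The M arrays were the highest and the LPS arrays the lowest, and both LPS+M arrays lay just under both control arrays. Il18 differed by 0.56 ± 0.10 between M and control cells (limma, adjusted p = 0.00627), a 1.47-fold difference just under the fold minimum. Leaving out M replicate 1 (0.64, adjusted p = 0.023) or control replicate 2 (0.59, adjusted p = 0.0351) made it a call. Between LPS and control cells the difference was -0.33 ± 0.10 (limma, adjusted p = 0.0429), 1.26-fold and not called. The limma adjusted p of this difference was 0.105 with no filter and 0.151 with every probe set fitted by itself. In LPS+M cells Il18 was lower than in M cells, at -0.61 ± 0.10 or 1.53-fold (limma, adjusted p = 0.0051), a call that was lost without M replicate 2 (-0.52) and under the methods' t-test. LPS+M and LPS cells differed by 0.28 ± 0.10 (limma, adjusted p = 0.0604). The LPS group, where Il1b was highest, was thus the one with the lowest Il18 arrays. Unlike Il1b, however, Il18 was not called between LPS and control cells.

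**Figure D1:**
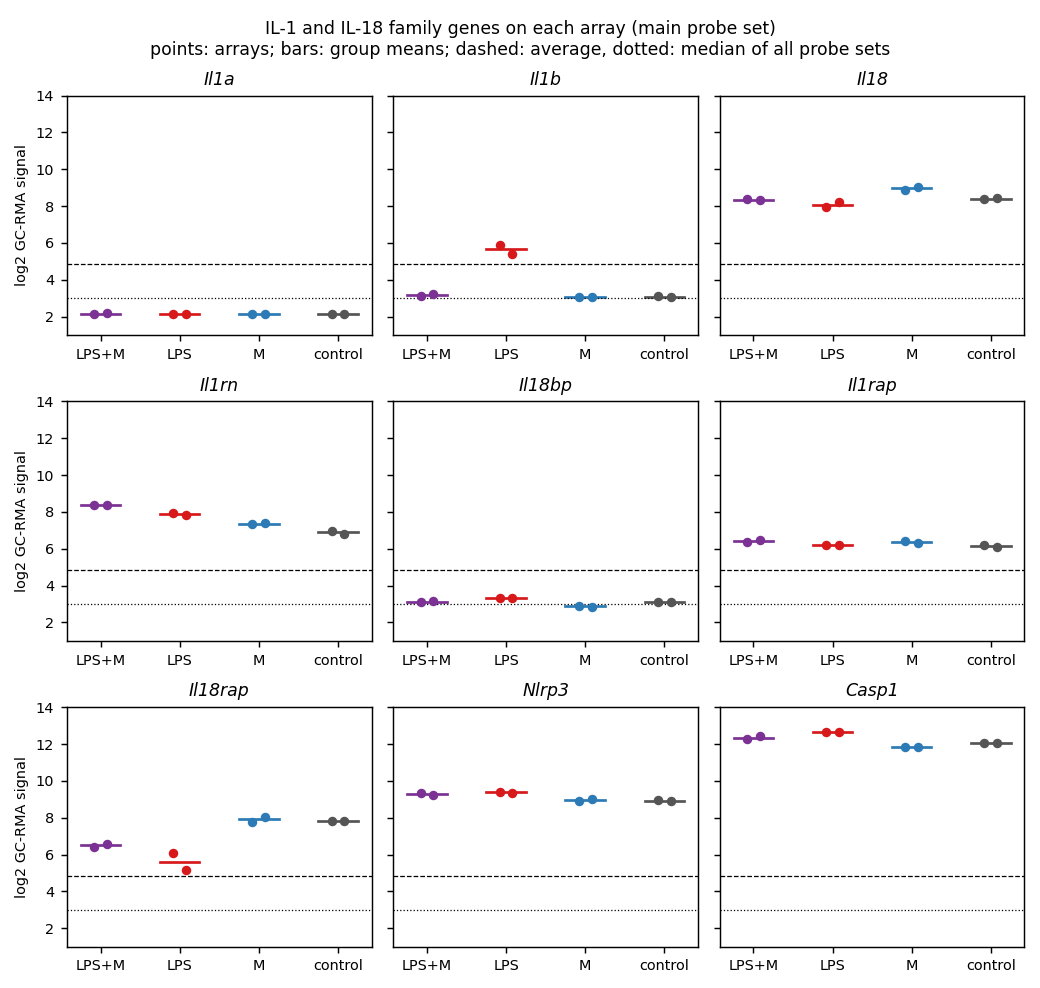
Log2 GC-RMA signal of the main probe set of each of the 9 genes, with 1 point for each array and a bar at the mean of the 2 arrays of a group. The dashed line is the average (4.84) and the dotted line the median (3.01) of all probe sets. Il1b passes the dashed line in LPS cells only, while the 4 groups of Il1rn step down without overlap in the order LPS+M, LPS, M and control.

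The IL-1 receptor antagonist was called higher with LPS in cells with and without menthol, and its level was highest in cells given both agents. Il1rn had 8.35 and 8.37 in LPS+M cells, 7.96 and 7.82 in LPS cells, 7.34 and 7.40 in M cells, and 6.99 and 6.81 in control cells. No 2 groups overlapped, and the order was LPS+M, LPS, M and control, with steps of 0.47, 0.52 and 0.47. Il1rn was 0.99 ± 0.08 higher in LPS than in control cells, or 1.98-fold (limma, adjusted p = 0.000155), and 0.99 ± 0.08 higher in LPS+M than in M cells, or 1.99-fold (adjusted p = 0.000212). The largest difference, 1.46 ± 0.08 or 2.75-fold, was that of LPS+M against control cells (limma, adjusted p = 1.54e-05). Menthol alone gave 0.47 ± 0.08 against control (limma, adjusted p = 0.00667), and LPS+M against LPS also gave 0.47 ± 0.08 (adjusted p = 0.00478). Both were 1.39-fold and so not called, although every array with menthol was above every array of its counterpart without it. The difference of the LPS response with and without menthol was 0.00 ± 0.12, with a 95% interval of -0.26 to 0.27 (limma, adjusted p = 0.998).

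The other 2 probe sets of Il1rn gave the same direction as the main one for LPS and for menthol alone, and 1 of them did so for LPS+M against LPS. Probe set 1425663_at had 5.64 and 5.85 in LPS+M cells, 5.29 and 5.19 in LPS cells, 4.93 and 5.05 in M cells, and 4.55 and 4.54 in control cells, the order of the main probe set. Probe set 1423017_a_at had 4.29 and 4.37 in LPS+M cells, 4.40 and 4.51 in LPS cells, 3.86 and 3.93 in M cells, and 3.59 and 3.54 in control cells, near background throughout and highest in LPS cells. With every probe set fitted by itself, LPS+M against LPS was 0.50 ± 0.08 for the first (limma, adjusted p = 0.023) and -0.12 ± 0.05 for the other (adjusted p = 0.304). LPS against control was called for all 3 probe sets, at 0.99, 0.69 and 0.89. LPS+M against M was called for the main probe set and 1425663_at (0.75) but not for 1423017_a_at (0.43). For 1423017_a_at the difference of the LPS response with and without menthol was -0.45 ± 0.07 (limma, adjusted p = 0.223). It was not called but lay outside the interval of the main probe set. For 1425663_at it was 0.06 ± 0.11.

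Il18bp, the other soluble inhibitor, had 3.10 and 3.17 in LPS+M cells, 3.31 and 3.34 in LPS cells, 2.87 and 2.87 in M cells, and 3.14 and 3.11 in control cells. It was near background in all groups and at the floor in M cells, and the LPS arrays were the highest. Its differences were 0.20 ± 0.03 for LPS against control (limma over all genes, adjusted p = 0.0155), -0.25 ± 0.03 for M against control (adjusted p = 0.00868) and -0.18 ± 0.03 for LPS+M against LPS (adjusted p = 0.0172), all under 1.5-fold and not called.

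Of the 2 receptor chains, Il18rap, the accessory chain of the IL-18 receptor, was the one that fell with LPS. Il18rap had 6.44 and 6.60 in LPS+M cells, 6.10 and 5.14 in LPS cells, 7.79 and 8.04 in M cells, and 7.83 and 7.85 in control cells. All 4 arrays with LPS lay under all 4 without it, and the 2 LPS arrays were farther apart than those of any other group. The level was -2.22 ± 0.26 in LPS against control cells, 4.64-fold lower (limma, adjusted p = 0.000934), -1.32 ± 0.26 in LPS+M against control cells, 2.49-fold lower (adjusted p = 0.00624), and -1.40 ± 0.26 in LPS+M against M cells, 2.64-fold lower (adjusted p = 0.0113). These SEs also pool the spread of all 4 groups, while the SD between arrays was 0.68 in LPS cells and 0.01 in control cells. The methods' t-test did not call Il18rap for LPS against control. Menthol alone gave 0.08 ± 0.26 (limma, adjusted p = 0.864).

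Il18rap was called 0.90 ± 0.26 higher in LPS+M than in LPS cells, or 1.86-fold (limma, adjusted p = 0.037), but this call rests on the LPS arrays and on the setting. The difference was 0.42, under the fold minimum, without LPS replicate 2 and 1.38 without LPS replicate 1. Either fit leaves LPS, the group with the widest scatter of Il18rap, with 1 array. These fits therefore show the size of the difference and not the stability of the call. The call was lost when any 1 array of the other groups was left out. With no filter its adjusted p was 0.142, averaging its 2 probe sets gave 0.58, under the fold minimum, and the methods' t-test did not call it. Its call for LPS+M against M was also lost with no filter (limma, adjusted p = 0.061), without LPS+M replicate 1 (-1.32, adjusted p = 0.0616) and without M replicate 2 (-1.28, adjusted p = 0.083). Fitted with every probe set by itself, LPS+M against control was not called either (adjusted p = 0.0577). The test of the difference in LPS response gave 0.82 ± 0.37 (limma, adjusted p = 0.518).

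The other probe set of Il18rap, 1421291_at, had 4.27 and 4.37 in LPS+M cells, 3.73 and 4.37 in LPS cells, 5.30 and 5.36 in M cells, and 4.69 and 4.63 in control cells. It lay near background except in M cells, where it was highest. For it, LPS against control was -0.61 ± 0.20 (limma over every probe set, adjusted p = 0.213) and M against control 0.67 ± 0.20 (adjusted p = 0.161), neither called.

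Il1rap, the accessory chain shared by the receptors of IL-1, IL-33 and IL-36, had 6.36 and 6.47 in LPS+M cells, 6.20 and 6.21 in LPS cells, 6.41 and 6.30 in M cells, and 6.21 and 6.11 in control cells. Nothing was called for it, and its 8 arrays spanned the narrowest range among the 6 tested genes. LPS against control gave 0.05 ± 0.07 (limma, adjusted p = 0.713) and LPS+M against control 0.25 ± 0.07, or 1.19-fold (adjusted p = 0.0282). Of its other 4 probe sets, 1449585_at stayed at 4.37 to 4.46 and the other 3 were at the floor on every array.

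**Figure D2:**
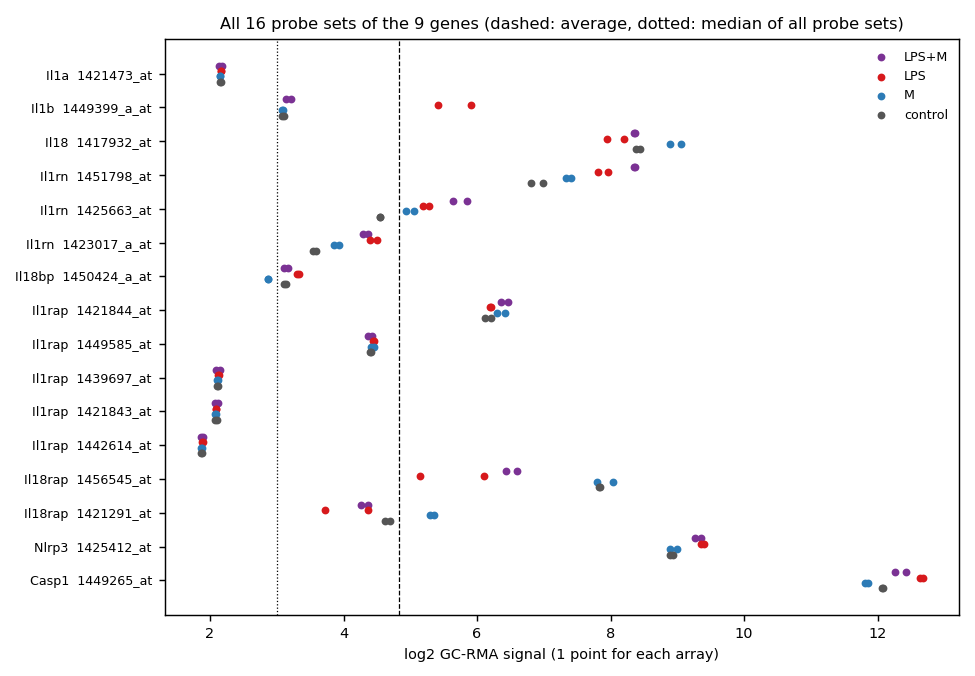
Log2 GC-RMA signal of all 16 probe sets of the 9 genes, with 1 point for each array, coloured by group; the dashed line is the average and the dotted line the median of all probe sets. Of the 16 probe sets, 7 had a mean above the average, 7 lay under it on every array, and 4 lay under the median on every array.

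Of the 2 genes of precursor processing, Casp1 was called higher in LPS than in control cells, at the edge of the fold minimum, and Nlrp3 had no call. Casp1, which encodes the protease that cleaves the precursors of IL-1 beta and IL-18, had 12.26 and 12.42 in LPS+M cells, 12.64 and 12.68 in LPS cells, 11.85 and 11.82 in M cells, and 12.07 and 12.08 in control cells. The groups did not overlap and were ordered LPS, LPS+M, control and M. Casp1 was 0.59 ± 0.07 higher in LPS than in control cells, or 1.51-fold (limma, adjusted p = 0.000968). This call sits on the fold minimum and was lost when the arrays were shifted to the same median (0.58) or without LPS replicate 2 (0.57). LPS+M against LPS gave -0.32 ± 0.07, a 1.25-fold difference (limma, adjusted p = 0.0125), and M against control -0.24 ± 0.07, 1.18-fold (adjusted p = 0.0482), neither called. LPS+M against M gave 0.50 ± 0.07, or 1.42-fold (limma, adjusted p = 0.00292), a call only without LPS+M replicate 1 (0.59).

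Nlrp3, the sensor of the best known inflammasome, had 9.35 and 9.26 in LPS+M cells, 9.40 and 9.35 in LPS cells, 8.90 and 8.99 in M cells, and 8.94 and 8.89 in control cells. The 4 arrays with LPS lay above the 4 without it, and the arrays with and without menthol lay close together in both. LPS against control was 0.46 ± 0.07, or 1.38-fold (limma, adjusted p = 0.00248), and LPS+M against M 0.36 ± 0.07 (adjusted p = 0.0112), under the fold minimum. M against control gave 0.03 ± 0.07 (limma, adjusted p = 0.78) and LPS+M against LPS -0.07 ± 0.07 (adjusted p = 0.469).

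By comparison, the 6 tested genes had 3 calls in LPS against control cells, 2 higher (Il1rn and Casp1) and 1 lower (Il18rap), where 6.13% of all tested genes were called, and over all 9 genes and no filter there were 4, with Il1b added, where 2.97% of all genes were. The median log2 change was 0.25 for the 6 genes and -0.03 for all tested genes. In M against control cells none of the 6 was called by limma, against 4.55% of all tested genes, although 3 passed the adjusted p and 4 had an unadjusted p under 0.05. The methods' t-test called 0 as well, and over all 9 genes with no filter limma called 0, against 2.03% of all genes. There the median was 0.14 for the 6 genes and 0.02 for all tested genes.

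In LPS+M against LPS cells the one call among the 6 was Il18rap, where 6.71% of tested genes were called, and the one call over all 9 genes with no filter was Il1b, where 3.12% were. The median of the 6 was 0.25 against 0.03 for all tested genes. That of all 9 was 0.0007 against 0.0007 for all genes with no filter. In LPS+M against M cells 3 of 6 were called (Il1rn higher, Il18 and Il18rap lower), against 4.16% of tested genes, with medians of 0.21 and -0.03, and 2 of 9 with no filter (Il1rn and Il18), against 1.91%. LPS+M against control cells gave 2 calls (Il1rn higher and Il18rap lower), against 9.83% of tested genes, with medians of 0.26 and 0.00, and the same 2 with no filter, against 4.9%. LPS against M cells gave 3 calls, Casp1 higher and both Il18 (-0.89, 1.86-fold) and Il18rap (-2.30, 4.91-fold) lower, against 11.3% of tested genes, with medians of 0.14 and -0.06, and with no filter also Il1b, against 5.55%. The difference in LPS response was called for none of the 6 genes by limma, with 0 at an unadjusted p under 0.05, and for 0.236% of tested genes. With no filter it was called for 0.0055% of genes and for none of the 9, of which Il1b alone had an unadjusted p under 0.05. These counts are of few genes, and the 9 were not tested as a list.

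**Figure D3:**
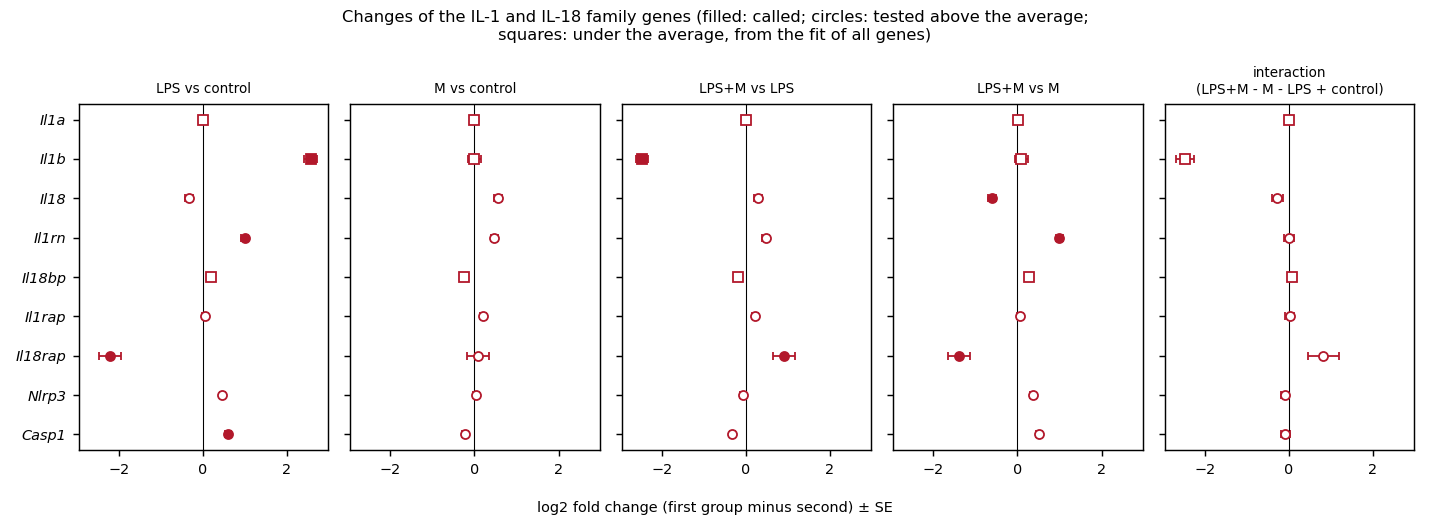
Log2 fold change (first named group minus second) ± SE of the 9 genes in 4 comparisons and in the difference of the LPS responses; filled symbols are called, circles are the 6 genes tested above the average and squares the 3 from the fit of all genes. The filled symbols of Il1b lie at 2.56 for LPS against control and at -2.47 for LPS+M against LPS.

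In the order of group levels, Il1b had 1 step that was called, between LPS and LPS+M, while LPS+M, control and M were not told apart. Il18rap had 2, between control and LPS+M and between LPS+M and LPS, and M and control were not told apart. For Il1rn, Casp1, Il18, Il18bp, Il1rap, Nlrp3 and Il1a no neighbouring groups differed by a call. Steps of Il1rn, Casp1, Il18, Il18bp and Nlrp3 passed the adjusted p alone, all under 1.5-fold.

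The tested genes whose levels over the 8 arrays were most like those of a member are given by Pearson correlation, a description over 4 groups that share these arrays. They were Dst (0.993), Lcp2 (0.992) and Fcgr2b (0.992) for Il1rn, Gpr85 (0.992), Wdr75 (0.987) and Mcoln2 (0.987) for Casp1, and Slc16a10 (0.990), Tor3a (0.987) and Piezo1 (0.986) for Nlrp3. For Il18rap they were 9930012K11Rik (0.990), Alox5 (0.989) and Zdhhc7 (0.989), for Il18 they were Rwdd2a (0.989), Pde3b (0.987) and Arhgef10l (0.976), and for Il1rap they were Ints6 (0.983), Ptar1 (0.976) and Zfp329 (0.970).

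The remaining ligands of the family were near background. Il36a, Il36b, Il36g, Il36rn, Il1f10 and Il33, 6 of 6 listed, had means of 1.77 to 3.12 and were under the average on every array. Of the receptors, 7 of 8 listed were measured, and only Sigirr, a receptor that restrains IL-1 family signaling, lay above the average. The binding chains that pair with the accessory chains Il1rap and Il18rap were at the floor on every array, with means of 2.55 for Il1r1 and 2.38 for Il18r1. Sigirr gave -0.55 ± 0.17 in LPS against control cells (limma, adjusted p = 0.052) and was not called.

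Of the signaling genes downstream of these receptors, which Toll-like receptors also use, 8 of 9 listed were tested. In LPS against control cells 2 were higher and 1 was lower, where 6.13% of all tested genes were called. In M against control cells limma called 0 of 8, with 4 at an unadjusted p under 0.05, where 4.55% of all tested genes were called. Irak3, which encodes a kinase-like inhibitor of the pathway, had 9.34 and 9.38 in LPS+M cells, 10.01 and 10.01 in LPS cells, 7.78 and 7.71 in M cells, and 7.79 and 7.77 in control cells. Its pattern was that of Il1b in direction, 2.23 ± 0.06 higher in LPS than in control cells (limma, adjusted p = 9.49e-07) and -0.65 ± 0.06 in LPS+M against LPS cells (adjusted p = 0.000337), but its LPS+M level stayed 1.61 ± 0.06 above that of M cells (adjusted p = 4.84e-06). Averaged over both of its probe sets, LPS+M against LPS was -0.53 and not called.

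Traf6, a ubiquitin ligase of the same pathway, had 6.44 and 6.15 in LPS+M cells, 4.62 and 5.27 in LPS cells, 6.08 and 6.11 in M cells, and 5.82 and 5.91 in control cells. Only its LPS arrays were low. It was 1.35 ± 0.19 higher in LPS+M than in LPS cells (limma, adjusted p = 0.00212) and -0.92 ± 0.19 in LPS against control cells (adjusted p = 0.012), the second lost with no filter (adjusted p = 0.061), without control replicate 1 (-0.97, adjusted p = 0.0555) or without control replicate 2 (-0.87, adjusted p = 0.0779). Another Traf6 probe set with a mean above the average, 1435350_at, gave 0.39 ± 0.17 for LPS+M against LPS (limma over every probe set, adjusted p = 0.309) and -0.42 ± 0.17 for LPS against control (adjusted p = 0.322), neither called. Irak2, a kinase of the receptor complex, was 0.80 ± 0.07 higher in LPS than in control cells (limma, adjusted p = 0.000274).

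Of the inflammasome and pyroptosis genes beside Nlrp3 and Casp1, 11 of 15 listed were measured and 10 tested. Casp4 alone was called for LPS against control and for LPS+M against M, and Naip2 alone for M against control and for LPS+M against LPS, all 4 as higher. These are 1 of 10 genes each, beside 6.13%, 4.16%, 4.55% and 6.71% of all tested genes in the order named, and so near the background. Casp4, the mouse caspase that senses LPS inside the cell, had 10.46 and 10.30 in LPS+M cells, 10.51 and 10.50 in LPS cells, 8.18 and 8.35 in M cells, and 8.49 and 8.71 in control cells. The 4 arrays with LPS were all above the 4 without it, by 1.91 ± 0.10 for LPS against control (limma, adjusted p = 1.56e-05) and 2.12 ± 0.10 for LPS+M against M (adjusted p = 1.21e-05), while LPS+M against LPS gave -0.12 ± 0.10 (adjusted p = 0.394).

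Naip2, a sensor of bacterial secretion systems, was higher with menthol, by 0.62 ± 0.11 in M against control cells (limma, adjusted p = 0.00709) and 0.59 ± 0.11 in LPS+M against LPS cells (adjusted p = 0.00666). The first call was lost without control replicate 1 (0.53, adjusted p = 0.0536), and the second without LPS+M replicate 1 (0.53), without LPS replicate 1 (0.44) or with quantile normalization (0.56).

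**Figure D4:**
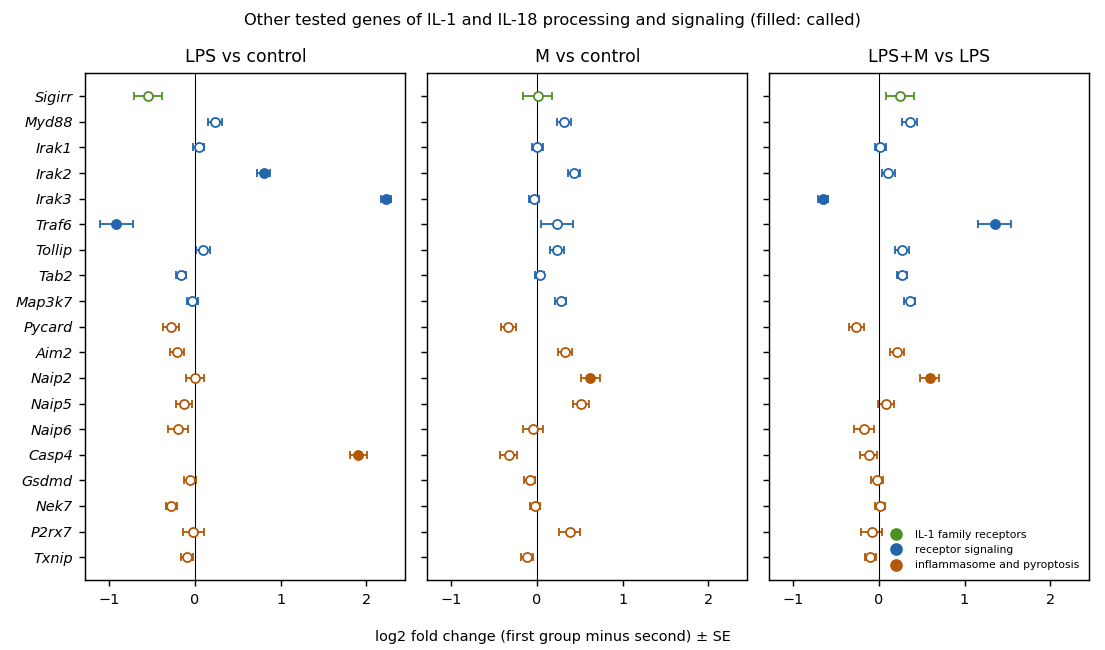
Log2 fold change (first named group minus second) ± SE of the other tested genes of the receptor, signaling and inflammasome lists in 3 comparisons; filled points are called. Irak3 is the only filled point that lies above 0 for LPS against control (2.23) and under 0 for LPS+M against LPS (-0.65).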

How the data were processed

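The 8 arrays were Affymetrix mouse genome arrays of RAW 264.7 cells, 2 in each of 4 groups taken from the sample labels. The authors deposited log2 signals. The submitters' processing notes name GCRMA (version 2.10.0) and R (version 2.6.1). GC-RMA removes a background predicted from probe sequence, quantile normalizes the arrays and gives 1 value for each probe set, so levels near the floor are compressed and levels of different genes are not comparable. Of 45101 probe sets, 34945 carried 1 gene symbol, 932 several, 9160 none and 64 were controls; the last 3 kinds were left out.

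All 8 arrays were fitted together as 4 group means with the lmFit and eBayes functions of limma 3.58.1 (R 4.3.3). Residual degrees of freedom were 4, and prior ones 3.778 (1.591 with no filter). The filter, the 1.5-fold minimum and the Welch test named as the methods' t-test follow the study's methods. The fit of the genes above the average was tested on simulated data, in which each gene had the same spread in all groups. The fit over all genes, the difference in LPS response and unequal spreads were not simulated. The number of arrays limits the precision. Every probe set of the 9 genes and any measured gene of the other lists could be named. The genes, lists and tests were chosen with earlier results of these data known, and TATAAA was added to the motifs after the data were seen. Replicate numbers were not used to pair the arrays in the main fit. Alternatives were no filter, the mean of all probe sets, each probe set by itself, shifts to the same median, quantile normalization, trended and robust eBayes, a replicate block, a fold minimum of 2, the methods' t-test and leaving out each array. Promoters and motif counts come from RefSeq (GRCm38.p6). Listed genes with no probe set of their own symbol (among them Il1rl1, Irak4, Nlrc4, Nlrp1a, Nlrp1b, Naip1 and Ly6g) were not analysed here.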

Additional observations from a re-analysis of the deposited data

Results flagged for a closer look

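The response to LPS of Irak3, a gene of receptor signaling that is not one of the 9, differed between cells with and without menthol by a test of the difference itself. It was -0.62 ± 0.08 on the log2 scale (LPS+M minus M, less LPS minus control; limma, adjusted p = 0.0419). The responses were 1.61 with menthol and 2.23 without it, and all 4 arrays with LPS lay above all 4 without it. The call was lost in 7 of 8 fits that left out 1 array (adjusted p of 0.108 to 0.208), with no filter (adjusted p = 0.0557), when its 2 probe sets were averaged (-0.51) and with a replicate block (adjusted p = 0.0689). Of the 9 genes, none was past the threshold of this test.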

How the results depend on the processing

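For the 9 genes, 663 values were recomputed over 63 gene and comparison pairs. They hold only the lowest and highest of the values with 1 array left out. Of them, 633 kept their direction and their side of the threshold, 25 lost a call, 5 gained one and 0 reversed. A fold minimum of 2, one of the alternatives, drops every call under 2-fold by definition, such as that of Casp1 for LPS against control (1.51-fold). The cause of the other changes was not tested. Most of the 63 pairs had no call in the main fit to lose. The 25 losses therefore fall on the smaller number of called pairs. All 504 values with 1 array left out held 11 lost and 6 gained calls. The methods' t-test also did not call Il1b and Il18rap for LPS against M. Over all genes, with a fold minimum of 2, the calls were 184 for LPS against control, 85 for M against control, 136 for LPS+M against LPS, 136 for LPS+M against M, 268 for LPS+M against control, 329 for LPS against M and 11 for the difference in LPS response, against 546, 405, 598, 371, 876, 1006 and 21 at 1.5-fold. Fitting every probe set by itself gave 827, 736, 1108, 564, 1560, 1714 and 2 in the same order, counted in probe sets. The methods' t-test, with no shared spread, gave 349, 254, 288, 217, 503 and 640 genes for the 6 comparisons of groups at its unadjusted p, and 0 in each after Benjamini-Hochberg adjustment. The mean of all probe sets of a gene gave 253 for M against control, 371 for LPS+M against LPS, 581 for LPS+M against control and 663 for LPS against M. For the difference in LPS response, no filter left 1 gene, trended and robust eBayes gave 45, and leaving out 1 array gave 2 (without M replicate 2) to 40 (without LPS+M replicate 2).

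Deviations of same-numbered arrays correlated at -0.121 to 0.186, which shows no strong pairing by replicate number but cannot exclude one. A replicate block gave 549, 408, 603, 374, 880, 1010 and 20 calls in the order above and changed no call of the 9 genes. With crossed numbers, added after the data were seen, LPS+M against control gave 872.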

Other observations

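Pycard, which encodes the inflammasome adaptor ASC, was measured at 12.11 to 12.82 on all 8 arrays by its main probe set. Its other 2 probe sets gave 3.45 to 3.87 and 1.80 to 1.83, under the average of all probe sets on every array. RAW 264.7 is widely described as lacking the ASC protein, and RNA arrays do not measure it. Il1r2, the decoy receptor of IL-1, had 3.14 and 2.97 in LPS+M cells, 2.82 and 2.85 in LPS cells, 2.87 and 3.29 in M cells, and 2.83 and 2.86 in control cells, near background throughout.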
